A study of Mus musculus with 9 samples.

Results

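The mitochondrial respiratory chain was measured here as 94 genes, out of 34310 in the deposited table, in kidneys of mice given LPS with Tβ4, LPS alone or saline. A gene was included when its symbol named a subunit of complexes I to V (Nduf, Sdh, Uqcr, Cox4 to Cox8 and Atp5 families, or an mt- gene of the Nd, Co, Cytb or Atp groups), its transcript types held protein_coding, its symbol held neither ps nor Gm, and its mean FPKM over the 9 libraries was at least 0.5. Of 111 matching symbols, 14 had no protein-coding transcript type, 2 were excluded by name (Cox5b-ps and Ndufb1-ps, at 16.3 and 18.5 FPKM) and 1 fell below the level (Cox6a2, 0.489 FPKM, where the lowest included gene, Cox4i2, had 0.567 FPKM). The 94 comprised 44 genes of complex I, 4 of complex II, 9 of complex III, 18 of complex IV and 19 of complex V. Of them 81 are nuclear and 13 are carried by mitochondrial DNA (7, 0, 1, 3 and 2 in the 5 complexes). All 94 were among the 15015 genes tested.

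The chain passes electrons from NADH (complex I) and succinate (complex II) through coenzyme Q, complex III and cytochrome c to oxygen at complex IV, and complex V, ATP synthase, uses the resulting proton gradient to make ATP. Complex II is built from nuclear genes alone, and every other complex joins nuclear subunits made in the cytosol with subunits translated inside the mitochondrion. In kidney the chain is densest in proximal tubule and thick ascending limb cells, whose ion transport depends on it.

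The 3 groups were mice that received LPS together with Tβ4 (thymosin β4, a small actin-binding peptide), mice that received LPS (lipopolysaccharide, a bacterial cell wall toxin that triggers inflammation) and mice that received saline. There were 3 mice per group and 1 library of fresh whole-kidney poly(A) RNA per mouse. The labels carry the treatment and tissue and give no dose, time, route, strain, sex, age or genotype, and the series title names sepsis-associated acute kidney injury. No group received Tβ4 alone. Levels of 1 gene between groups are given below as CPM (counts scaled to library size after TMM), always in replicate order 1, 2, 3. Levels of different genes are set side by side as FPKM, which is per transcript length. Each change is a log2 fold change with its SE, estimated by edgeR and called at an adjusted p under 0.05.

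Sequences of 3 nuclear members and of 2 stretches of mitochondrial DNA are shown. Sdhb and Sdhd belong to the complex in which every gene fell in LPS kidneys, and Ndufb2 was 1 of the 2 genes that differed between LPS+Tβ4 and LPS. The mitochondrial stretches show why counts of those genes cannot be fully separated. No change given below was related to a promoter match. Promoters run from 250 bases before to 50 after the RefSeq gene start (GRCm38.p6), 5′ to 3′ on the gene's strand. Capitals mark matches on either strand to GCATGCGC (a partial site of the factor NRF1), CCGGAAG (the core bound by ETS factors such as GABP) or AAGGTCA (a partial site of estrogen-related receptors). In the Sdhb promoter the NRF1 partial site began at -54 and the ETS core at 7. In that of Sdhd the ETS core (reverse strand) began at -46 and the receptor partial site (reverse strand) at 37. In that of Ndufb2 the receptor partial site began at -181, with positions of the leftmost base counted from the gene start.
Sdhb promoter, chr4:140961021-140961320 (+ strand): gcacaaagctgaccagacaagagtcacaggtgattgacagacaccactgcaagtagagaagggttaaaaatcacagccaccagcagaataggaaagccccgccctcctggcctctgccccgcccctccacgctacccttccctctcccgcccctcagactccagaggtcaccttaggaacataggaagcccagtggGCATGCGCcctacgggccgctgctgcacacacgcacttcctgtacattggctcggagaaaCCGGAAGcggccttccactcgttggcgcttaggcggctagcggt
Sdhd promoter, chr9:50603800-50604099 (- strand): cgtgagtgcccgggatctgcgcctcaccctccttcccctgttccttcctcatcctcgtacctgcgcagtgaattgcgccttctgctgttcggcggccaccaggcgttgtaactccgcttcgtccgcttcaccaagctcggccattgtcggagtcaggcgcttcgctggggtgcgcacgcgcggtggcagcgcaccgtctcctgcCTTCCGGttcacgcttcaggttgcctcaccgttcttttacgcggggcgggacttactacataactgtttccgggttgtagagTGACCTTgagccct
Ndufb2 promoter, chr6:39592315-39592614 (+ strand): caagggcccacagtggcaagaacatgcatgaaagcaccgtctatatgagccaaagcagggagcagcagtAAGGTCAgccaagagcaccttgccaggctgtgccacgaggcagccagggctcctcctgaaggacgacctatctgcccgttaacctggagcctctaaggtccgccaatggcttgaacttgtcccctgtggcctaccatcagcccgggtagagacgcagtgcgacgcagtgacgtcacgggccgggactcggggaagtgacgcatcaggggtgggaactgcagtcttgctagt

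Promoters of 67 of the 81 nuclear members were found in the RefSeq table. The NRF1 partial site was present in 10 of them (14.9%), against 2.8% of all 27025 promoters of the same length. The ETS core was present in 16 (23.9% against 9.12%) and the estrogen-related receptor partial site in 8 (11.9% against 4.66%). None of the printed matches overlapped another. A match describes letters in this window and is no evidence of binding.

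In mitochondrial DNA, mt-Atp8 and mt-Atp6 (the 2 subunits of ATP synthase encoded there) share 43 bases read in different frames, printed in capitals within their surroundings (GENCODE M21, GRCm38). A read inside the capitals fits both genes. The 2 remaining lines give the first 33 bases of mt-Nd3, a complex I subunit, and of Gm28438, an unprocessed pseudogene on chromosome 1. Over 345 aligned bases they differ at 1 position, T3C, counted from the first transcript base and in capitals here (mt-Nd3 base first).
mt-Atp8 to mt-Atp6, MT:7907-7989 (+ strand): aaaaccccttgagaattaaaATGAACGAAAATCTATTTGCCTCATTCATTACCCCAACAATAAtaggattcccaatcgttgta
mt-Nd3: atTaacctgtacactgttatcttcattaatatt
Gm28438: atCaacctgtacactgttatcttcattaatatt

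The libraries held 53M to 62M gene counts, M being a count of 1e6, and 89 of the 94 genes were above 10 CPM in every saline library. Summed over 10 proximal tubule markers, levels were 3017, 3702 and 1865 CPM in LPS+Tβ4 kidneys, 1301, 2483 and 4705 CPM in LPS kidneys and 12424, 11619 and 13795 CPM in saline kidneys. Of these markers 7 were lower in LPS+Tβ4 and 8 in LPS, each against saline, and 0 passed edgeR's test in LPS+Tβ4 against LPS. Some markers of other kidney cells were also lower against saline. Of 4 thick ascending limb markers 2 were lower in LPS+Tβ4 and 3 in LPS. Of 4 each for distal convoluted tubule, principal cells and podocytes, 1 was lower in LPS+Tβ4 and 3 in LPS. Of 5 intercalated cell markers 3 were lower in both, and of 3 tested neutrophil markers 3 were higher in LPS+Tβ4 and 2 in LPS. Of 4 endothelial markers 1 was lower in LPS+Tβ4 and 0 in LPS. Of 4 macrophage markers 1 was higher in each, and 0 were lower in LPS+Tβ4 and 2 in LPS. Over all tested genes 11.8% were lower and 12.3% higher in LPS+Tβ4, and 22.2% and 20.9% in LPS. In bulk tissue, fewer cells of a type and less RNA per cell cannot be told apart. Transcripts of urothelium and fat were plentiful in 5 libraries (LPS+Tβ4 replicate 3, LPS replicates 1 and 2, saline replicates 2 and 3; 5 urothelial markers summed to 46.2 to 87.0 CPM) and scarce in the other 4 (0.758 to 2.13 CPM). The 5 neural markers summed to 192, 229 and 204 CPM in LPS+Tβ4 kidneys, 26, 16.3 and 8.69 CPM in LPS kidneys and 19.6, 16.6 and 20.8 CPM in saline kidneys.

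Set against saline, most of the chain was lower in LPS kidneys. By edgeR 57 of the 94 genes were lower and 0 were higher, where 22.2% of all tested genes were lower and 20.9% higher. At an unadjusted p under 0.05, 69 were lower and 0 higher, and neither DESeq2 nor limma called any higher. The log2 change was negative for 92 of 94 genes, with a median of -0.83 beside 0.02 over all tested genes. By complex, 28 of 44 genes of complex I fell (median -0.76), as did 4 of 4 of complex II (-1.09), 6 of 9 of complex III (-0.91), 5 of 18 of complex IV (-0.57) and 14 of 19 of complex V (-0.91). Without saline replicate 1 the count was 31 in place of 57, where 16.3% of all tested genes were lower in place of 22.2%. Whichever single library was omitted, 31 of the 57 remained called (15 in complex I, 4 in II, 2 in III, 1 in IV and 9 in V). In complexes I and V the counts without saline replicate 1 were 15 and 9. In the 5 libraries rich in urothelial transcripts, with 2 LPS and 2 saline libraries, 18 were called lower, where 12.5% of all tested genes were lower. The median there was -0.77, beside 0.03 over all tested genes. In the 4 poor ones, with 1 LPS and 1 saline library, the median was -0.91, beside -0.0004 over all tested genes.

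Libraries of 1 group differed widely. Taking each gene relative to its mean in saline, the median over the chain was 63.7, 61.8 and 46.9% in LPS+Tβ4 kidneys, 38.5, 69.2 and 59.6% in LPS kidneys and 115, 89.1 and 96.2% in saline kidneys. LPS+Tβ4 replicate 3 was the lowest of its group for 75 of 81 nuclear genes, LPS replicate 1 the lowest for 65, and saline replicate 1 the highest for 71. The first 2 were also the libraries of their groups with the lowest summed proximal tubule markers given above. For 4 thick ascending limb markers LPS replicate 1 had instead the highest sum of its group, with 2016, 2506 and 890.4 CPM in LPS+Tβ4 kidneys, 2881, 476 and 1551 in LPS kidneys and 3553, 5088 and 3512 in saline kidneys. The part of either in the levels was not tested. Without LPS replicate 1 the median change over the 94 genes in LPS against saline was -0.60, and without saline replicate 1 it was -0.67.

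**Figure D1:**
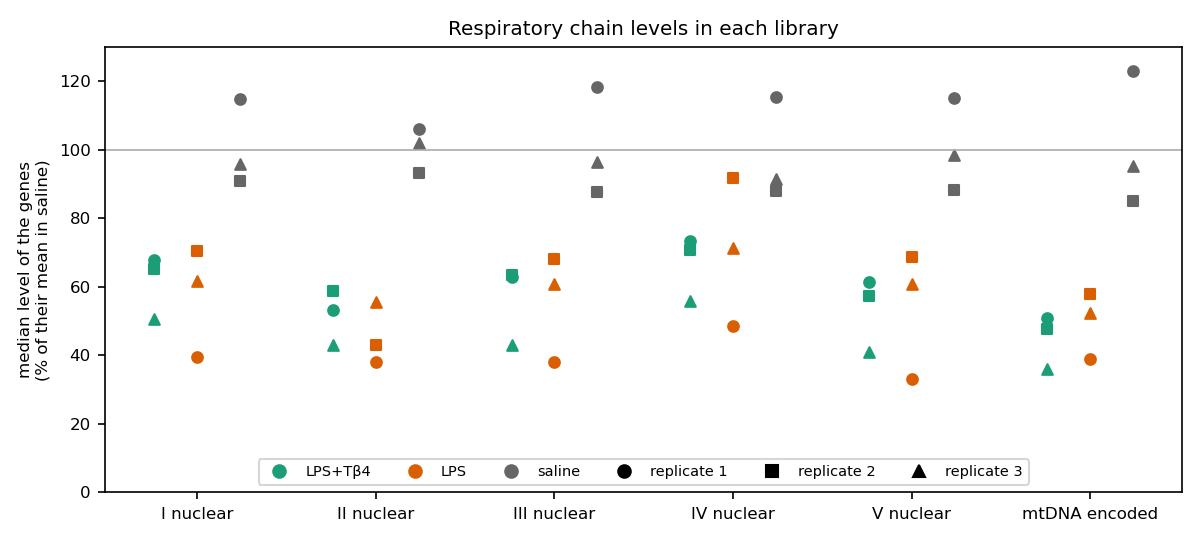
Median level of the genes of each complex in each library, as a percentage of the gene's mean over the 3 saline libraries (y axis); the x axis gives nuclear genes by complex and the 13 genes of mitochondrial DNA, colours the groups and symbols the replicate. LPS replicate 1 (circles) and LPS+Tβ4 replicate 3 (triangles) lie lowest in their groups in every column, and the LPS libraries of complex IV reach 91.8%.

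Complex I oxidises NADH with a conserved core, which holds the flavin and the iron-sulfur clusters and to which Ndufs1, Ndufs3 and Ndufs8 belong, inside a shell of accessory subunits such as Ndufv3. Complexes were assigned here by symbol, so Ndufa4 and Ndufa4l2, described below, are counted in complex I. Ndufs1, the largest core subunit, had 119.9, 151 and 107 CPM in LPS+Tβ4 kidneys, 92.1, 76.4 and 105 in LPS kidneys and 257, 262 and 303 in saline kidneys. The LPS libraries lay below all saline libraries, as did the LPS+Tβ4 libraries. Such separation was common. Of all 15015 tested genes, 4279 lay wholly lower and 3875 wholly higher in LPS than in saline, and 3932 and 3711 in LPS+Tβ4 than in saline. The change in LPS against saline was -1.59 ± 0.18 (SE; edgeR adjusted p = 0.00032), the smallest adjusted p of the chain. Ndufs8 and Ndufv3 also fell, to 49.8, 53.2 and 43.2 CPM in LPS kidneys against 112, 91.3 and 102 CPM in saline kidneys (-1.06, adjusted p = 0.00055) and to 42, 62.8 and 56.8 CPM in LPS kidneys against 130.3, 114 and 115 CPM in saline kidneys (-1.15, adjusted p = 0.00092). By symbol family, 7 of the 11 Ndufs and Ndufv genes fell, and 16 of the 26 Ndufa, Ndufb and Ndufc genes. The second family holds accessory subunits and, by symbol, also Ndufa4 and Ndufa4l2. The first mixes core subunits with accessory ones such as Ndufv3, so the pair does not compare core with shell. At the other end, Ndufs3, a core subunit, had 118, 109.8 and 91.4 CPM in LPS+Tβ4 kidneys, 86.2, 146 and 148 in LPS kidneys and 139.7, 114 and 124 in saline kidneys, with overlapping groups and a change of 0.01 ± 0.22 (SE; edgeR adjusted p = 0.972). Ndufs3 overlaps Kbtbd4 and Ndufs1 overlaps Ino80dos on the opposite strand. Whether reads were counted by strand is not stated in the labels.

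Complex II, succinate dehydrogenase, is shared by the chain and the citric acid cycle; Sdha holds the flavin, Sdhb the iron-sulfur clusters, and Sdhc and Sdhd anchor them in the membrane. All 4 genes fell in LPS kidneys with log2 changes of -1.03 to -1.21. In each the LPS libraries lay below every saline library, as they did for 4279 of all 15015 tested genes. Sdha had 433, 538 and 415 CPM in LPS+Tβ4 kidneys, 304, 333 and 471 in LPS kidneys and 806, 857 and 903 in saline kidneys, a change of -1.21 ± 0.20 (SE; edgeR adjusted p = 0.00203). Sdhb, whose promoter is printed above, had 135, 137 and 103 CPM in LPS+Tβ4 kidneys, 82.3, 139 and 144 in LPS kidneys and 261, 229 and 259 in saline kidneys. Sdhd had 167, 189 and 133 CPM in LPS+Tβ4 kidneys, 133, 126 and 163 in LPS kidneys and 325, 276 and 299 in saline kidneys. In both genes the 3 groups' lowest values came from LPS libraries and saline stood above them all. Their changes were -1.03 ± 0.22 (SE; edgeR adjusted p = 0.00627) and -1.09 ± 0.17 (SE; edgeR adjusted p = 0.00138). Sdhc changed by -1.10 ± 0.17 (SE; edgeR adjusted p = 0.0014). Across these 4 genes the levels relative to saline were 53.2, 58.9 and 43% in LPS+Tβ4 kidneys and 38.1, 42.9 and 55.6% in LPS kidneys (medians), and all 4 calls in LPS against saline remained in each of the 9 fits with 1 library omitted.

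Complex III passes electrons to cytochrome c and holds 2 core proteins (Uqcrc1, Uqcrc2), the Rieske iron-sulfur protein (Uqcrfs1), the mitochondrially encoded cytochrome b and small subunits. Uqcrc1 had 239.8, 256 and 196 CPM in LPS+Tβ4 kidneys, 183, 212 and 229 in LPS kidneys and 324, 309.7 and 326 in saline kidneys, and its LPS libraries lay below those of saline (-0.62 ± 0.15 SE, edgeR adjusted p = 0.00942). Uqcrc2 changed by -0.91 (adjusted p = 0.0118) and Uqcrb by -0.89 (adjusted p = 0.0252), a call that was lost without saline replicate 1 (adjusted p = 0.0966) or 3 (0.0586). Uqcr11 and Uqcr10 missed the threshold at -1.08 and -0.96 (adjusted p = 0.0505 and 0.0503), Uqcr10 being named after its values were seen. Uqcrq had the smallest change, -0.60 ± 0.34 (SE; edgeR adjusted p = 0.187), with 80.4, 136 and 73.7 CPM in LPS kidneys against 226, 109 and 105 CPM in saline kidneys. Without saline replicate 1, and likewise without saline replicate 3, 2 genes of this complex were called in place of 6.

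Complex IV, cytochrome c oxidase, had a median of 71.3 FPKM over its 15 nuclear genes in saline, beside 69.2 FPKM over all nuclear members. Its saline means ran from 0.526 FPKM (Cox4i2) to 329 FPKM (Cox6b1), with Cox4i1 at 319 FPKM. Of these 15 genes 3 were called lower, where complexes I, II, III and V had 23 of 37, 4 of 4, 5 of 8 and 13 of 17. Of all tested genes 22.2% were lower. The 15 include tissue isoforms at low levels. In saline 2 were under 10 FPKM and in LPS 3, beside 2 and 3 of 37 in complex I and 0 in II, III and V. The difference between complexes was not tested. The median change of the nuclear genes of complex IV was -0.44. Cox4i1, a scaffold subunit and the usual form of Cox4, had 445, 423 and 321 CPM in LPS+Tβ4 kidneys, 292, 569 and 536 in LPS kidneys and 671, 549.6 and 604 in saline kidneys. Only LPS replicate 2 reached the saline range, and the change was -0.39 ± 0.26 (SE; edgeR adjusted p = 0.261). Cox6b1, which faces the intermembrane space, fell, with 109.7, 202 and 199 CPM in LPS kidneys against 305, 278 and 275 CPM in saline kidneys (-0.75 ± 0.24 SE, edgeR adjusted p = 0.0328). The call was lost without saline replicate 1, 2 or 3 or LPS+Tβ4 replicate 2 (adjusted p = 0.102, 0.0689, 0.0761 and 0.0501). Cox6b2, the testis form of Cox6b, had the largest fall of the complex, -1.26 (edgeR adjusted p = 0.00849). Its FPKM was only 1.13, 0.58 and 0.42% of that of Cox6b1 in LPS kidneys and 1.14, 0.79 and 0.81% in saline kidneys. The Cox6b2 call was lost in 1 of 23 alternatives, and those of Cox6b1 and Cox7b in 9 and 14 of 24. Cox5b had 121, 113 and 70.4 CPM in LPS+Tβ4 kidneys, 73.7, 69 and 49.9 in LPS kidneys and 107, 55.7 and 57.8 in saline kidneys, with overlapping groups (-0.19 ± 0.31 SE, edgeR adjusted p = 0.638). Cox7a2l, which joins complexes III and IV into supercomplexes, changed by -0.19 ± 0.16 (SE; edgeR adjusted p = 0.39). Over the whole complex, 1 gene was called without saline replicate 1 or 3, and 3 without saline replicate 2, LPS replicate 1 or 3 or LPS+Tβ4 replicate 2, in place of 5.

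Complex V makes ATP in a head (Atp5a1, Atp5b) with a central stalk (Atp5c1) that is turned by a membrane ring of subunit c. For subunit c, Atp5g1, Atp5g2 and Atp5g3 encode the same mature protein behind different import sequences. All 3 genes fell in LPS kidneys. Atp5g1 had 73.6, 81 and 57.6 CPM in LPS+Tβ4 kidneys, 44.4, 54.5 and 73.1 in LPS kidneys and 222, 137 and 168 in saline kidneys (-1.62 ± 0.25 SE, edgeR adjusted p = 0.00129 in LPS against saline). Atp5g2 had 76.2, 79 and 73.9 CPM in LPS+Tβ4 kidneys, 76.5, 72.7 and 76 in LPS kidneys and 117, 101 and 100.5 in saline kidneys, and its treated libraries all lay below saline (-0.50 ± 0.11 SE, edgeR adjusted p = 0.00588). Atp5g3, the form with most FPKM in every library, had 325, 333 and 219 CPM in LPS+Tβ4 kidneys, 163, 348 and 306 in LPS kidneys and 571, 435 and 489 in saline kidneys (-0.87 ± 0.29 SE, edgeR adjusted p = 0.0401), and 7 of the 9 fits with 1 library omitted did not call it (adjusted p up to 0.128, without saline replicate 1). The FPKM of Atp5g1 as a share of that of Atp5g3 was 10.04, 10.8 and 11.6% in LPS+Tβ4 kidneys, 12.1, 6.95 and 10.6% in LPS kidneys and 17.3, 14 and 15.2% in saline kidneys, without overlap between treated and saline libraries. The central stalk gene Atp5c1 changed by -1.17 (adjusted p = 0.00432) and Atp5o, of the stalk that holds the head, by -1.09 (adjusted p = 0.00247). Atp5g1 has a pseudogene on chromosome 11 with 99.8% identity (Gm10039), so its counts are uncertain to that extent.

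**Figure D2:**
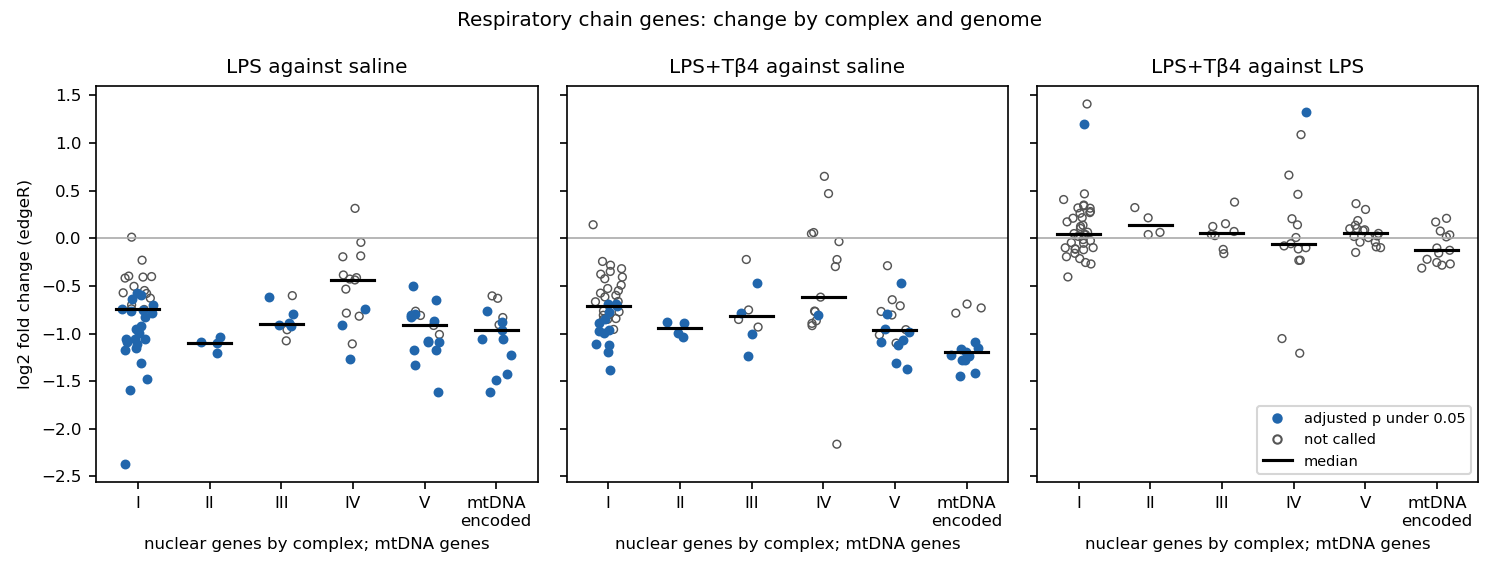
Log2 fold change (y axis) of each of the 94 genes, with nuclear genes by complex and the 13 genes of mitochondrial DNA along the x axis, in the 3 comparisons; filled points passed edgeR at an adjusted p under 0.05 and bars are medians. Against saline nearly all points lie below 0, with nuclear complex IV nearest to it, and in LPS+Tβ4 against LPS the medians lie near 0 with 2 called genes.

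The 13 genes of mitochondrial DNA are transcribed as long precursors from both strands and cut into single transcripts at the tRNAs between them. They held 8.5, 8.03 and 7.21% of all counts in LPS+Tβ4 kidneys, 7.35, 9.51 and 8.19% in LPS kidneys and 15.8, 12.6 and 13.6% in saline kidneys, and every treated library lay below every saline library. In LPS against saline 9 of 13 fell (median -0.96), and 5 were called without LPS replicate 1, saline replicate 1 or saline replicate 3. In LPS+Tβ4 against saline 10 fell (median -1.19), and 2 were called without LPS+Tβ4 replicate 3 or saline replicate 1, and 4 without LPS+Tβ4 replicate 1 or 2 or saline replicate 3. Per length they stood far above the nuclear genes, with saline means of 2993 FPKM (mt-Nd3) to 23186 FPKM (mt-Co1), where the highest nuclear mean was 458 FPKM (Atp5a1).

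The sizes of the changes ranged widely over the 13 genes. mt-Nd3 had 601, 469.6 and 356 CPM in LPS+Tβ4 kidneys, 240.5, 634 and 393 in LPS kidneys and 1857, 981 and 1041 in saline kidneys (-1.61 ± 0.40 SE, edgeR adjusted p = 0.0123 in LPS against saline). mt-Nd4l, its neighbour, had 656, 716 and 499.6 CPM in LPS+Tβ4 kidneys, 572, 551 and 496 in LPS kidneys and 1541, 1335 and 1653 in saline kidneys (-1.48 ± 0.19 SE, edgeR adjusted p = 0.0006). mt-Nd4, which overlaps mt-Nd4l by 7 bases, changed by -1.43 ± 0.32 (SE; edgeR adjusted p = 0.00774). mt-Co1, the catalytic core of complex IV, had 28952, 27432 and 23350.0 CPM in LPS+Tβ4 kidneys, 22832, 34213 and 29980.0 in LPS kidneys and 49418, 36937 and 46012 in saline kidneys, and its change was -0.60 ± 0.39 (SE; edgeR adjusted p = 0.235). mt-Nd6, the member read from the other strand, had 2179, 1734 and 1339 CPM in LPS+Tβ4 kidneys, 1172, 2506 and 2172 in LPS kidneys and 3756, 2607 and 2693 in saline kidneys (-0.63 ± 0.33 SE, edgeR adjusted p = 0.159), and it overlaps mt-Nd5. The other 8 changed by -1.23 (mt-Nd2), -1.05 (mt-Co3), -1.05 (mt-Cytb), -0.96 (mt-Co2), -0.91 (mt-Atp6), -0.88 (mt-Atp8), -0.83 (mt-Nd1) and -0.77 (mt-Nd5), of which mt-Atp6 and mt-Nd1 missed the threshold (adjusted p = 0.057 and 0.0653). The mt-Nd5 call (adjusted p = 0.0452) was lost in all 9 fits with 1 library omitted (up to 0.143, without saline replicate 3). Differences between these changes were not tested.

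**Figure D3:**
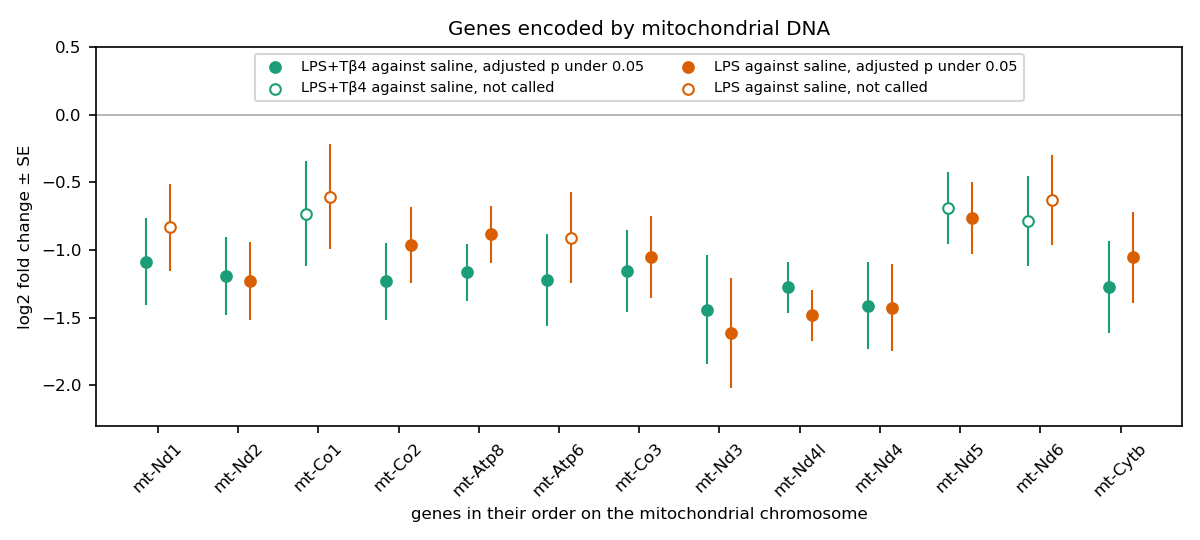
Log2 fold change ± SE (y axis) of the 13 genes encoded by mitochondrial DNA, in their order along the chromosome (x axis), in LPS+Tβ4 and in LPS, each against saline; filled points passed edgeR at an adjusted p under 0.05. mt-Nd3, mt-Nd4l and mt-Nd4 lie lowest in LPS, and mt-Co1, mt-Nd6 and mt-Nd5 nearest to 0 in both.

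The 2 genomes were read in overlapping proportions in LPS and saline kidneys: counts of mitochondrial over nuclear members had a ratio of 8.85, 8.41 and 7.3 in LPS kidneys and 8.96, 7.68 and 8.35 in saline kidneys, which overlap. In LPS+Tβ4 kidneys the ratio was 7.16, 6.52 and 7, below every library of the other groups; it is a description, with no test. The mean ratio in LPS+Tβ4 was 0.842 ± 0.0915 of that in LPS (SD propagated from 3 libraries each).

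The 7 unprocessed pseudogenes on chromosome 1, copies of mt-Atp6, mt-Co1, mt-Co2, mt-Co3, mt-Nd3, mt-Nd4 and mt-Nd4l at 99.7% to 100% identity, took 2.4, 2.24 and 2.03% of all counts in LPS+Tβ4 kidneys, 1.97, 2.89 and 2.34% in LPS kidneys and 5.12, 3.8 and 4.04% in saline kidneys. For the copies of mt-Atp6, mt-Co2, mt-Co3, mt-Nd3 and mt-Nd4l the pseudogene held 48.7% to 51.6% of the pair's counts in every library, that of mt-Nd4 held 23.4% to 25.9% and that of mt-Co1 held 7.05% to 12.8%. How reads that fit both places were counted is not given in the sources used here, and the level of these 7 genes depends on it. With the pseudogene counts added, 9 of all 13 mitochondrial genes were called in LPS and 10 in LPS+Tβ4, each against saline, as without them. Most copies held a near-constant share of the pair's counts, so adding them could hardly move the changes. Other ways of counting such reads were not tried. Of the nuclear members, 18 have a pseudogene with at least 95% identity over at least 200 bases, and these copies together held 0.00739% to 0.0213% of counts; Ndufa12-ps, with 99.5% identity to Ndufa12, is the most abundant.

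Few genes of the chain passed the test between LPS+Tβ4 and LPS. By edgeR 2 of 94 genes were higher and 0 lower, where 4.5% of all tested genes were higher and 2.33% lower; 6 were higher and 0 lower at an unadjusted p under 0.05, and DESeq2 and limma each called 2 higher and 0 lower. The median change was 0.04 beside -0.01 over all tested genes, 0.05 over the nuclear and -0.13 over the mitochondrial members. The 2 called genes were Cox6b2, the testis form of Cox6b, and Ndufb2, an accessory subunit of complex I. Cox6b2 had 3.65, 4.58 and 4.79 CPM in LPS+Tβ4 kidneys, 1.97, 1.9 and 1.33 in LPS kidneys and 5.5, 3.49 and 3.51 in saline kidneys. Ndufb2 had 27.5, 23.1 and 16.9 CPM in LPS+Tβ4 kidneys, 11.2, 11.3 and 6.96 in LPS kidneys and 27.7, 16.7 and 16.9 in saline kidneys. In both, LPS libraries lay below all others, and LPS+Tβ4 and saline overlapped. Of all 15015 tested genes, 2159 lay wholly higher and 1791 wholly lower in LPS+Tβ4 than in LPS. Cox6b2 (chr7:4751792-4753094 in GRCm38) changed by 1.32 ± 0.29 (SE; edgeR adjusted p = 0.0364) and was lost in 7 of the 9 fits with 1 library omitted (adjusted p up to 0.144, without LPS+Tβ4 replicate 2). Ndufb2 (chr6:39592574-39603382) changed by 1.1951 ± 0.29 (SE; edgeR adjusted p = 0.048) and was also lost in 7 of 9 (up to 0.17, without LPS+Tβ4 replicate 2). Neither was called in a fit of the 6 LPS+Tβ4 and LPS libraries alone, which called 3 of all 15015 tested genes. Ndufb2 overlaps Braf on the opposite strand. The neural markers given above moved with this comparison (5 of 5 higher in LPS+Tβ4 than in LPS), and their part in it was not tested.

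The change of the other genes depended on which LPS library was in the group. Without LPS replicate 1 the median over the 94 genes in LPS+Tβ4 against LPS was -0.17, 2 genes were higher and 1, Ndufa1, an accessory subunit of complex I, was lower. Without LPS replicate 2 the median was 0.16 and 0 were called. These fits called 2672 and 102 of all 15015 tested genes, where the fit of all 9 libraries called 1025. In the 4 libraries poor in urothelial transcripts, a split chosen after seeing the data, the LPS group is replicate 3 alone and its spread is taken from the 2 LPS+Tβ4 libraries. There the median change over the 94 genes was 0.003, beside 0.015 over all tested genes. In the 5 rich ones, where the LPS+Tβ4 group is replicate 3 alone, it was -0.18 beside -0.02. Cox8a, the broadly expressed form of Cox8, had 189, 185 and 121 CPM in LPS+Tβ4 kidneys, 118, 65.6 and 49.1 in LPS kidneys and 173, 77.2 and 65.2 in saline kidneys. All LPS libraries lay below all LPS+Tβ4 libraries while saline overlapped both, and the change in the fit of all 9 libraries missed the threshold at 1.09 ± 0.44 (SE; edgeR adjusted p = 0.167).

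In LPS+Tβ4 against saline 41 of 94 genes were lower and 0 higher by edgeR, where 11.8% of all tested genes were lower and 12.3% higher, with a median of -0.80. At an unadjusted p under 0.05, 68 were lower and 0 higher, and neither DESeq2 nor limma called any higher (LPS and LPS+Tβ4 share the saline libraries in these comparisons). The counts were 18 of 44 in complex I, 4 of 4 in II, 5 of 9 in III, 3 of 18 in IV and 11 of 19 in V. Without 1 library they ranged over 6 to 30 in complex I, 3 to 4 in II, 0 to 7 in III, 0 to 8 in IV and 4 to 17 in V. The highest of each of I, III, IV and V came without LPS replicate 1. The count in III was 0 without LPS+Tβ4 replicate 2 or 3 or saline replicate 1 or 3, and 0 of its calls and 0 of those in IV remained in all 9 such fits. The count over the chain was 20, 25 or 15 without LPS+Tβ4 replicate 1, 2 or 3, 14 or 21 without saline replicate 1 or 3, and 66 without LPS replicate 1. Of all tested genes 6.33, 8.94, 7.19, 6.29, 6.48 and 13.9% were lower in these fits, in that order. Ndufv3, whose product joins the flavin end of complex I, had 55.4, 59.8 and 50.6 CPM in LPS+Tβ4 kidneys, 42, 62.8 and 56.8 in LPS kidneys and 130.3, 114 and 115 in saline kidneys, and the LPS+Tβ4 and LPS libraries overlapped below saline (-1.11 ± 0.16 SE, edgeR adjusted p = 0.00233 in LPS+Tβ4 against saline). For Ndufs1 the change was -1.12 ± 0.17 (SE; edgeR adjusted p = 0.00305), for mt-Nd4l -1.27 ± 0.19 (SE; edgeR adjusted p = 0.00253) and for Sdhc -1.04 ± 0.17 (SE; edgeR adjusted p = 0.00372).

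Tissue isoforms of complex IV were low in these kidneys and varied widely between libraries. Cox8b, the form of Cox8 in muscle and brown fat, had 0, 0.452 and 6.32 CPM in LPS+Tβ4 kidneys, 1.51, 14.2 and 0 in LPS kidneys and 0, 9.74 and 2.85 in saline kidneys. It was at 0 in 1 library of each group, and its FPKM reached 37.1% of that of Cox8a in LPS replicate 2 and 21.7% in saline replicate 2. The 5 fat cell markers (Adipoq, Plin1, Cfd, and the brown fat genes Ucp1 and Cidea) summed to 1.73, 18.2 and 340.1 CPM in LPS+Tβ4 kidneys, 104, 311 and 0.51 CPM in LPS kidneys and 4.83, 430.0 and 75.8 CPM in saline kidneys, and the 5 libraries with Cox8b above 1 CPM were the 5 with the highest sums. Adipoq was at 0 in LPS+Tβ4 replicate 1 and LPS replicate 3. Striated muscle markers, 7 in all, summed to 0.383 to 7.31 CPM. Cox7a1, the heart and muscle form of Cox7a, had 0.953, 0.919 and 3.31 CPM in LPS+Tβ4 kidneys, 1.21, 8.52 and 1.06 in LPS kidneys and 7.83, 9.55 and 5.86 in saline kidneys and was 7.83 CPM in saline replicate 1, a library with few fat transcripts. Their part in these levels was not tested. Neither gene was called by edgeR in the fit of all 9 libraries. Cox7a1 was lower in LPS against saline without LPS replicate 2 (-2.72, adjusted p = 0.0184). It was lower in LPS+Tβ4 against saline by DESeq2 (-2.15, adjusted p = 0.0297) and by edgeR in 4 alternatives, among them the 6 libraries compared (-2.14, adjusted p = 0.0274) and the fit without LPS replicate 2 (-2.10, adjusted p = 0.0332). Cox4i2, the lung form of Cox4, stood at 0.2 to 0.861 CPM over the 9 libraries.

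**Figure D4:**
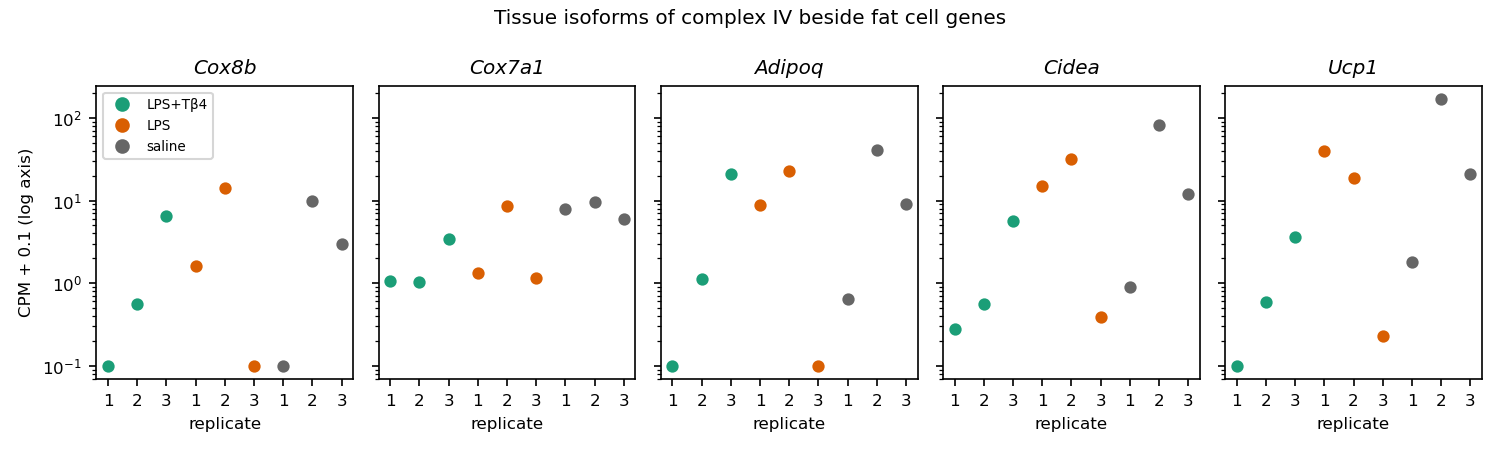
CPM + 0.1 on a log axis (y) of Cox8b and Cox7a1 beside the fat cell genes Adipoq, Cidea and Ucp1 in each library (x axis: replicates 1 to 3 of LPS+Tβ4, LPS and saline). Cox8b is low where the fat genes are low (LPS+Tβ4 replicates 1 and 2, LPS replicate 3, saline replicate 1), and Cox7a1 is not low in saline replicate 1.

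Ndufa4, first described in complex I and since assigned to complex IV, has 2 paralogs; it and Ndufa4l2 stand in the complex I counts above because of their symbols. Ndufa4 itself had 197, 164 and 127 CPM in LPS+Tβ4 kidneys, 99.1, 256 and 235 in LPS kidneys and 333, 260.4 and 284 in saline kidneys and was not called (-0.57 ± 0.33 SE, edgeR adjusted p = 0.195 in LPS against saline). Ndufa4l2, which is induced by hypoxia in many cells, had 1.57, 1.66 and 3.24 CPM in LPS+Tβ4 kidneys, 1.14, 1.05 and 0.237 in LPS kidneys and 4.73, 4.53 and 3.31 in saline kidneys. All LPS libraries lay below all saline libraries, at -2.37 ± 0.57 (SE; edgeR adjusted p = 0.0108), the largest fall of the chain, and the call remained in all 23 alternatives that tested it. The third gene, AA467197, whose human counterpart is NMES1, lies outside the symbol rule and had 12, 8.02 and 36 CPM in LPS+Tβ4 kidneys, 22.5, 92.9 and 14.3 in LPS kidneys and 0.568, 1.68 and 2.48 in saline kidneys. It rose in LPS against saline (4.77 ± 0.97 SE, edgeR adjusted p = 0.00498) and in LPS+Tβ4 against saline (3.56 ± 0.92 SE, edgeR adjusted p = 0.0245), the second call being lost in 4 of 9 fits with 1 library omitted. It did not pass between LPS+Tβ4 and LPS (adjusted p = 0.408 by edgeR). Its FPKM as a share of that of Ndufa4 was 6.99, 5.59 and 32.4% in LPS+Tβ4 kidneys, 26, 41.7 and 6.99% in LPS kidneys and 0.19, 0.734 and 0.991% in saline kidneys. The gene overlaps Mir147 on the same strand.

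Among genes that build and serve the chain, most of those called were lower in LPS kidneys. Of 50 assembly factors 30 fell and 1 rose by edgeR (median -0.69), where 22.2% of all tested genes were lower and 20.9% higher. The same shares apply to the counts that follow. Cox20, a chaperone of the mt-Co2 product, had 6.43, 6.21 and 3.94 CPM in LPS+Tβ4 kidneys, 2.7, 3.93 and 3.92 in LPS kidneys and 27.3, 19.1 and 16.3 in saline kidneys (-2.57 ± 0.30 SE, edgeR adjusted p = 0.00041 in LPS against saline), and Bcs1l, which inserts the Rieske protein into complex III, had 12.6, 12.7 and 10.6 CPM in LPS+Tβ4 kidneys, 6.69, 5.56 and 4.96 in LPS kidneys and 20.1, 16.6 and 20.8 in saline kidneys (-1.74 ± 0.19 SE, edgeR adjusted p = 0.00027). The 1 that rose was Cox18, named after its values were seen, which exports the tail of the mt-Co2 product across the inner membrane, with 11.7, 8.97 and 9.95 CPM in LPS+Tβ4 kidneys, 18.5, 17.1 and 13.9 in LPS kidneys and 6.98, 7.71 and 7.49 in saline kidneys (1.16 ± 0.18 SE, edgeR adjusted p = 0.00147). Of 29 genes of mitochondrial DNA expression 15 fell (median -0.51). Tfam, which packages mitochondrial DNA and starts its transcription, had 40.5, 40.9 and 34.1 CPM in LPS+Tβ4 kidneys, 36, 40.2 and 50.4 in LPS kidneys and 56, 46.6 and 52.1 in saline kidneys and was not called (-0.29 ± 0.16 SE, edgeR adjusted p = 0.165). Lrpprc, which stabilises mitochondrial mRNAs, had 70.8, 90.0 and 67.3 CPM in LPS+Tβ4 kidneys, 51.7, 33.8 and 41.8 in LPS kidneys and 84.9, 100.3 and 119 in saline kidneys (-1.26 ± 0.20 SE, edgeR adjusted p = 0.00166). Of 14 citric acid cycle genes other than Sdh, 13 fell (median -1.04), Idh3a to 73.4, 55.5 and 59 CPM in LPS kidneys against 227, 215 and 207 CPM in saline kidneys. Of 3 tested subunits that the symbol rule misses, AA467197 rose and Cyc1, cytochrome c1, and Ndufab1, an acyl carrier in complex I, fell, with log2 changes of -1.04 (adjusted p = 0.00472) and -1.22 (adjusted p = 0.00456).

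Of 15 genes of coenzyme Q and cytochrome c, 8 fell and 1 rose in LPS against saline (median -0.54), beside the 22.2% of all tested genes that were lower and 20.9% that were higher. Coq9, a lipid-binding protein of coenzyme Q synthesis, had 66.1, 88.5 and 58 CPM in LPS+Tβ4 kidneys, 42.9, 37.8 and 39.1 in LPS kidneys and 185, 155 and 164 in saline kidneys. The 3 groups did not overlap, and the change was -2.07 ± 0.17 (SE; edgeR adjusted p = 0.0001). Coq8b, an atypical kinase of the same pathway linked to steroid-resistant kidney disease in humans, rose, with 50.2, 41.3 and 43.6 CPM in LPS+Tβ4 kidneys, 43.7, 66.2 and 48.2 in LPS kidneys and 20.9, 19.3 and 18.3 in saline kidneys (1.43 ± 0.17 SE, edgeR adjusted p = 0.00047). Cycs, cytochrome c, had 466, 442 and 304 CPM in LPS+Tβ4 kidneys, 221, 396 and 463 in LPS kidneys and 577, 436 and 484 in saline kidneys and was not called (-0.47 ± 0.29 SE, edgeR adjusted p = 0.215). Of 10 inhibitors and carriers 4 fell and 1 rose, beside 22.2% and 20.9% of all tested genes, and 2 fell without LPS replicate 2 or saline replicate 1 or 3. The riser was Ucp2, an uncoupling protein of the inner membrane, with 683, 579 and 499 CPM in LPS+Tβ4 kidneys, 504, 522 and 699 in LPS kidneys and 99.7, 144 and 93.9 in saline kidneys (2.35 ± 0.24 SE, edgeR adjusted p = 0.00021), and the adenine nucleotide carriers Slc25a4 and Slc25a5 fell, with log2 changes of -1.10 (adjusted p = 0.00111) and -1.34 (adjusted p = 0.00359).

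In LPS+Tβ4 against LPS these lists gave 9 calls: 3 of 50 assembly factors (Bcs1l, Nubpl and Fmc1), 4 of 29 genes of mitochondrial DNA expression (Mgme1, Fastkd2, Lrpprc and Top1mt), 1 of 15 of coenzyme Q and cytochrome c (Coq9) and 1 of 14 of the citric acid cycle (Idh3a) were higher. This stands beside the 4.5% of all tested genes that were higher. The change was positive for 44 of 50 assembly factors (median 0.33), 19 of 29 genes of mitochondrial DNA expression (0.13) and 56 of 94 chain genes (0.04). Bcs1l changed by 1.06 ± 0.18 (SE; edgeR adjusted p = 0.0201), Coq9 by 0.83 ± 0.17 (SE; edgeR adjusted p = 0.0299) and Lrpprc by 0.84 ± 0.20 (SE; edgeR adjusted p = 0.045). None of these 9 calls remained in all 9 fits with 1 library omitted. That of Bcs1l was lost in 3 of 9, Coq9 in 6 of 9, Lrpprc and Mgme1 in 8 of 9 each, and the other 5 in 7 of 9 each. Without LPS+Tβ4 replicate 1 or 2, or without LPS replicate 2, 0 genes of the 4 lists were called. Those fits called 198, 68 and 102 of all 15015 tested genes, in that order. Without LPS replicate 1, 9 assembly factors and 6 genes of mitochondrial DNA expression were higher and 1 of the second list was lower. That fit called 2672 of all 15015 tested genes, higher and lower together, where the fit of all 9 libraries called 1025.

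**Figure D5:**
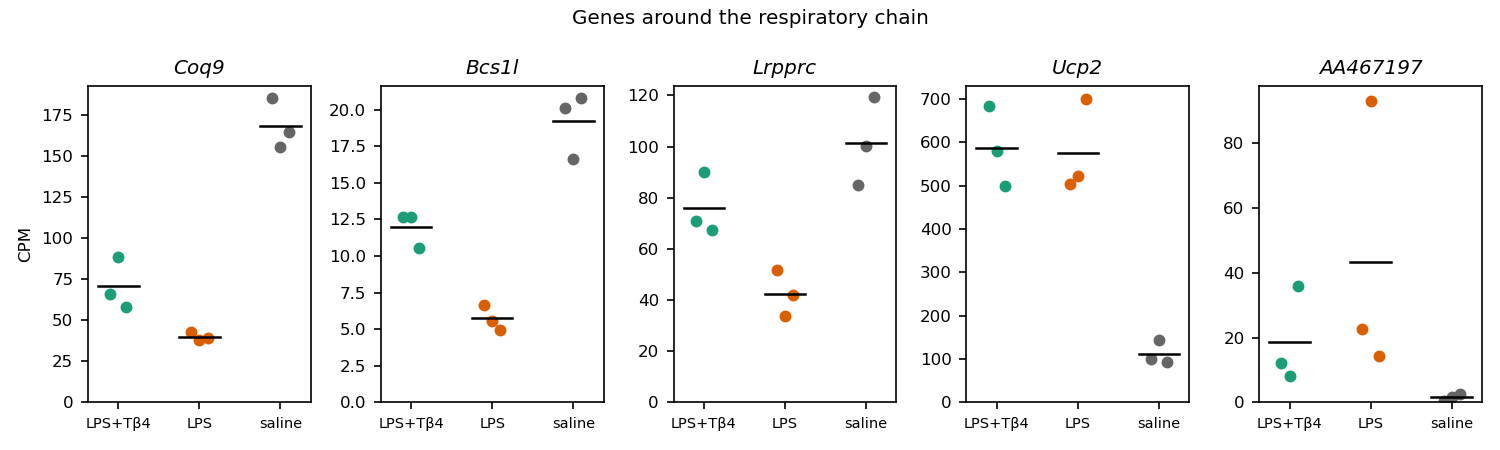
CPM (y axis, from 0) of Coq9, Bcs1l, Lrpprc, Ucp2 and AA467197 in the 3 libraries each of LPS+Tβ4, LPS and saline (x axis); bars are group means. Coq9, Bcs1l and Lrpprc stand lowest in LPS, and Ucp2 and AA467197 lowest in saline.

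Within the 81 nuclear members, the size of the change in LPS against saline had a weak rank relation to transcript features. Spearman's rho was 0.13 with GC content and -0.21 with length, which the rule did not use, and 0.12 with mean FPKM, which it did. In LPS+Tβ4 against LPS the values were -0.03, 0.36 and -0.06. These are correlations across genes of the same libraries, which are not independent, and are given as a description. Of the 94 genes, 43 overlap another gene of the table, 29 of them on the opposite strand, and counts of these cannot be assigned to 1 gene with certainty.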

How the data were processed

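Poly(A) RNA of fresh mouse kidney (RIN above 7 per the labels) was sequenced as strand-marked paired-end libraries. Tools named without a role in the submitters' processing notes were HISAT2 2.2.1, cutadapt 1.9, StringTie 2.1.6, edgeR and DESeq2, with the build GRCm38. The counting program, annotation release and use of strand are not stated there. The deposited table holds the authors' raw counts per gene and the authors' FPKM for 34310 genes in 9 libraries.

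Counts were tested with edgeR 4.0.16 (R 4.3.3). A single quasi-likelihood model with 3 group means covered the 9 libraries after TMM scaling. Tests were 2-sided over the 15015 genes whose FPKM averaged 0.5 or more, Benjamini-Hochberg adjusted over them, threshold 0.05. The SE is the change divided by the square root of F. The fit was tested on simulated data. P-values measure the spread between 3 mice per group. Library totals set the depth.

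Members and lists were chosen with earlier results of these data known. Named genes were, per complex and genome, the 3 smallest adjusted p and the extreme changes, all Sdh and mitochondrial genes and isoform pairs, and up to 4 per list; others are marked. Copies were found with blastn 2.17.0 against GENCODE M21 transcripts. Alternatives were DESeq2 1.42.0, limma 3.58.1 on log2(FPKM + 1) or (FPKM + 0.1), other scalings and filters, a replicate block, a urothelial covariate and omitted libraries. Added after seeing the data were the chromosome 1 copies and the 5 and 4 libraries with many or few urothelial transcripts.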

Additional observations from a re-analysis of the deposited data

How the results depend on the processing

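The median change in LPS against saline stayed between -0.97 and -0.60 without 1 library and between -0.91 and -0.71 under the other alternatives, and no named gene past the threshold reversed. Calls lower numbered 57, and 31 (without saline replicate 1) to 58 (without LPS replicate 2) without 1 library. They numbered 18 with only the 5 libraries rich in urothelial transcripts. Of all tested genes 22.2, 16.3, 17.3 and 12.5% were lower in these fits, in that order. In LPS+Tβ4 against saline they numbered 41, 14 to 66 without 1 library, 64 with only the 6 libraries compared and 64 with the urothelial covariate, 27 without replicate 3 of both treated groups, and 0 and 66 in the 5 rich and 4 poor libraries. In LPS+Tβ4 against LPS, calls higher numbered 2, 0 to 2 without 1 library, 0 with no filter, a mean FPKM of 5, only the 6 libraries compared or the 5 rich libraries, 1 with filterByExpr, the urothelial covariate or without replicate 3 of both, and 7 in the 4 poor libraries; calls lower numbered 0, and 0 to 1 without 1 library. The causes were not tested, beyond fewer libraries or more genes tested where the alternative makes it so.

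Replicate numbers are not stated to pair mice. Same-numbered libraries of different groups had correlations of deviations from -0.629 to 0.259, beside -0.45 to 0.498 for libraries of other numbers. The best match had the same number in 3 of 18 cases. With 3 libraries per group that also differ in urothelial transcripts, these values cannot settle whether mice were paired. With the replicate block, 39 genes were lower in LPS against saline, 0 higher in LPS+Tβ4 against LPS and 21 lower in LPS+Tβ4 against saline. Over all 15015 tested genes the block left 5284, 5 and 2474 calls in these comparisons, in that order. On the FPKM scale limma moved the median of all genes to 0.11 and 0.14 in LPS against saline and to 0.14 and 0.19 in LPS+Tβ4 against saline, and the chain's median relative to it was -0.83 and -0.88, and -0.73 and -0.79.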
